A study of Homo sapiens with 10 samples.

Results

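The regions described here are stretches of chromatin at which H4R3me2s, the symmetric dimethylation of arginine 3 on histone H4, was called as a broad region in α-synuclein-induced SH-SY5Y cells both over differentiated and over undifferentiated cells. They were chosen by the authors' peak calls: a broad region of the comparison of BDNF+Dox with BDNF on chromosomes 1 to 22 or X is a member if it overlaps by 1 bp or more a broad region of the comparison of BDNF+Dox with Naive. Of 25226 broad regions over BDNF, 8921 (35.4%, exact 95% binomial interval 34.8 to 36.0%) met this rule and are called shared. They met 8922 of the 20165 regions over Naive (44.2%), and both lists together held 45391 regions. Both lists rest on the same merged BDNF+Dox reads, so the overlap is how the members were found and gives no independent evidence of a change. All differences between groups at these regions are therefore given as descriptions without a test.

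Symmetric dimethylation of this arginine is written mainly by PRMT5, a methyltransferase that works with the partner protein WDR77 and is best known as a factor of gene repression. PRMT5 also associates with BAF (SWI/SNF) chromatin remodelling complexes, and the study concerns an interaction of α-synuclein with such a complex. Broad calling joins neighbouring stretches of weak signal that narrow calling treats separately, and is commonly used for histone marks that spread over a distance.

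SH-SY5Y is a human neuroblastoma line that gains neuronal traits under retinoic acid. BDNF+Dox cells (n = 3 libraries) were kept in 10 µM retinoic acid for 6 days and then 4 days in 50 ng/ml BDNF, a neurotrophin, with α-synuclein switched on through a Tet-on system by 3 days of 1 µg/ml doxycycline. BDNF cells (n = 3) had the same differentiation without doxycycline, and Naive cells (n = 3) had neither. Whether the line is 1 clone, and whether replicates are separate cultures, is not given in the sources used here. No doxycycline control without the construct was analysed here, so drug and protein cannot be told apart, and over Naive the differentiation cannot be told apart from either. Peak lists hold no expression values, so the identity of the cells was not checked on markers.

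After removal of duplicate positions the merged BDNF+Dox file kept 54723304 reads, the merged BDNF file 52693520 and the merged Naive file 53481523. The 9 libraries, each called as narrow peaks against 1 Input library, kept between 17164402 and 18928589 reads and held between 4505 and 12135 peaks on these chromosomes. The lists hold no read count per region, so no counting interval can be given for a single region. The intervals given for shares treat regions as independent and cover counting error only.

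Few promoter windows lay in shared regions, and those that did were poor in G and C. Of 34789 RefSeq promoter windows (250 bases before to 50 after an annotated start, GRCh38.p14), 18 overlapped a shared region (0.0517%), 9 of them of protein-coding genes. The 9 genes were CCDC158, IL33 (an alarmin cytokine of the nucleus), IKZF1 (the lymphoid transcription factor Ikaros), NAPEPLD (a phospholipase that makes N-acylethanolamines), TNN (a tenascin of the extracellular matrix), SMCO1, ART3, THBS4 (a thrombospondin) and ZBTB18 (a transcriptional repressor of brain development). The 18 windows held 26.7 to 52.3% G and C, with a median of 37.2% against 58.7% over all windows, and had a median of 3 CG dinucleotides against 14. Windows touched by regions over BDNF that were not shared, 36 in number, had a median of 38.8%, so low G and C content was seen in both kinds. The letters GGGCGG or CCGCCC, the core of the GC box, stood in 0 of the 18 windows, in 1 of the 36 and in 44.9% of all. The letters TATAAA or TTTATA stood in 5 of the 18 windows (27.8%), in 12 of the 36 (33.3%) and in 11.6% of all. Both motifs were searched on both strands.

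The promoter windows of 4 of these genes show how much of each lay in the shared region. CCDC158, IL33 and IKZF1 were chosen for the longest overlap, and ART3 because its region was the only 1 of the 9 with a library peak. Sequences are from RefSeq (GRCh38.p14), run 5′ to 3′ on the gene's strand, and have the bases inside the shared region in capitals.
CCDC158 (chr4:76407256-76407555, minus strand): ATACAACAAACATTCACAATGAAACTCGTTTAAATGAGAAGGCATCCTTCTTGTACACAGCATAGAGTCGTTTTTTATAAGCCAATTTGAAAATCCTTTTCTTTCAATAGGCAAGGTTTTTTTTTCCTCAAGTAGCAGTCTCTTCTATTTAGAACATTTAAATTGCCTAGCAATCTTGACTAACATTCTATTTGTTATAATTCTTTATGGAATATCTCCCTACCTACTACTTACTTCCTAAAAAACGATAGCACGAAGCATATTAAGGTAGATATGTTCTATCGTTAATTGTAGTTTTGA
IL33 (chr9:6214899-6215198, plus strand): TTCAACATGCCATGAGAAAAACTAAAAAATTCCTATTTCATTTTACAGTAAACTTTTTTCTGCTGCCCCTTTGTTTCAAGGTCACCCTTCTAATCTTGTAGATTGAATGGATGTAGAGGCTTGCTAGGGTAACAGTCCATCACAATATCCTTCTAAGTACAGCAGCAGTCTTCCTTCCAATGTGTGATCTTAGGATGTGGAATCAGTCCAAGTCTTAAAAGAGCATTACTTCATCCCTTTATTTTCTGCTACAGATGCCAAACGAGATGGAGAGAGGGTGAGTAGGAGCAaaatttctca
IKZF1 (chr7:50308450-50308749, plus strand): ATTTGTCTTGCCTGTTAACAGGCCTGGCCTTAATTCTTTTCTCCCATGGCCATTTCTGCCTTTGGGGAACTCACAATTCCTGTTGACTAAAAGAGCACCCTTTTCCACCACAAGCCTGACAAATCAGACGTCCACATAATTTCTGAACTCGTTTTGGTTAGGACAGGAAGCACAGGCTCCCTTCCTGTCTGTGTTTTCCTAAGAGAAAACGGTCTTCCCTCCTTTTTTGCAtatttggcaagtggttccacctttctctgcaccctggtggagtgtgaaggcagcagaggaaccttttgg
ART3 (chr4:76053866-76054165, plus strand): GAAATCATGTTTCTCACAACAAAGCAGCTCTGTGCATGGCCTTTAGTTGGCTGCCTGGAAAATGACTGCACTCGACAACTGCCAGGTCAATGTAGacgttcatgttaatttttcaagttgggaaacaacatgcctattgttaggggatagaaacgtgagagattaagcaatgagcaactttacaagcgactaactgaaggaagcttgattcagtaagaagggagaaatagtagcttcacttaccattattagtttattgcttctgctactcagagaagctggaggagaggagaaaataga

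The CCDC158 window lay wholly inside its region of 367 bp, and 290 of the 300 bases of the IL33 window lay inside a region of 371 bp. At IKZF1 the region of 666 bp covered 231 bases and ended before the annotated start, and at ART3 the region of 163 bp covered the 95 bases farthest upstream. The fold enrichment that MACS2 gave the region over BDNF was 2.30 at CCDC158, 2.24 at IL33, 2.28 at IKZF1 and 2.68 at ART3. Over Naive it was 2.40 at CCDC158, 2.43 at IL33, 2.46 at IKZF1 and 2.37 at ART3. Fold enrichment, pileup, p and q of every region are the authors' own values, means over the region, and no q among these promoter regions was below 0.975 over BDNF. A narrow peak of both comparisons lay in the regions of IKZF1 and ART3, and in neither of those of CCDC158 and IL33. Of 1558 miRNA hairpins on these chromosomes, 0 overlapped a shared region and only 1 overlapped any broad region over BDNF, so the 0 says little about the shared regions.

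The shared regions were mostly short and weak, though slightly wider than the regions over BDNF that were not shared. Their median width was 319 bp, with an interquartile range of 224 to 419 bp, against a median of 297 bp (205 to 398 bp) in the 16305 regions over BDNF that were not shared. The smallest width, 163 bp, is the fragment length that MACS2 used as its minimum. In all, 990 shared regions (11.1%) were wider than 500 bp, against 8.54% of the others, and 17 exceeded 1000 bp. Together they covered 3011 kb. The median fold enrichment over BDNF was 2.33 in shared regions and 2.31 in the others, and the median pileup 9.97 and 9.75 fragments. Because the rule needs overlap, wide and strong regions have more chance to meet it: 29.4% of regions under 200 bp were shared (interval 28.2 to 30.6%), against 41.6% of those of 500 bp or more (39.7 to 43.6%). Likewise 31.7% were shared at a −log10 p over BDNF below 2.5, and 13 of 23 (56.5%, 34.5 to 76.8%) at 5 or more, with partners over Naive of any p. Width and strength were thus in part used by the rule.

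**Figure D1:**
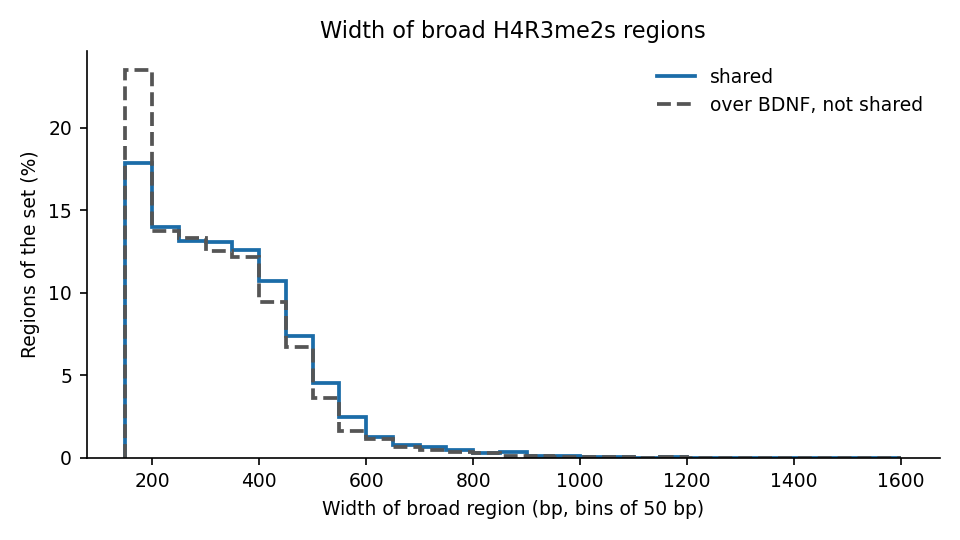
Width of broad regions in bins of 50 bp (x axis, bp) against the percentage of the set's regions in each bin (y axis), for the 8921 shared regions (solid line) and the 16305 regions over BDNF that were not shared (dashed line). Both sets fall away beyond 500 bp, and the narrowest bin holds a smaller part of the shared set.

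Few members were significant on their own. At q of 0.05 or less over BDNF there were 3 shared regions, where 5 of all 25226 regions (0.0198%) reached it, and 2 of their partners over Naive did, of 3 among all 20165 (0.0149%). Of the shared regions, 80.7% had q = 1 over BDNF, against 85.4% of the others. The member with the smallest q was chr9:60666101-60666651, 551 bp wide, with a fold of 4.18 and q = 3.17e-06 over BDNF and a fold of 3.88 and q = 3.77e-06 over Naive. It lay outside annotated genes, 248 kb from SPATA31A5, a gene of a multi-copy family, and had 0 narrow peaks in either pooled list and 0 peaks in each of the 9 libraries. Next came chr15:23198912-23199117, 62.1 kb from GOLGA6L1, also of a multi-copy family, with q = 0.00217 over BDNF and 0.00283 over Naive and a peak in 2 of 3 BDNF+Dox libraries. The member with the smallest q after these, chr15:84456526-84457196, lay in the noncoding genes LOC102724135 and LOC105370946, with q = 0.0196 over BDNF but 0.997 over Naive. Whether these regions share sequence with other copies was not examined, and how reads with several matches were counted is not given in the sources used here, so their values are uncertain.

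The remaining 7 of the 10 members with the smallest q had q between 0.0517 and 0.167 over BDNF. The region chr21:8036596-8037124, 207 kb from LOC102723475, had a peak in 2 of 3 BDNF+Dox and in 2 of 3 Naive libraries. RNF115, which encodes a ubiquitin ligase, held the only 1 of the 10 inside a protein-coding gene, with q = 0.0555 over BDNF and 0.509 over Naive. A region in LINC01619, a noncoding RNA gene 23.4 kb from the antiproliferative gene BTG1, had folds of 3.65 and 3.56 over BDNF and over Naive. Outside genes were regions 30.6 kb from SOX2 (a stem cell and neural progenitor transcription factor), 14.4 kb from RICTOR (a subunit of the mTORC2 kinase complex) and 264 kb from FAT4 (a large cadherin). The remaining region lay in the noncoding gene LOC102724858, 378 kb from ZFHX4, and had q = 0.122 over BDNF but 0.986 over Naive.

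The calls of a shared region in the 2 lists nearly coincided. Start and end were identical in 1805 of the 8922 overlapping pairs (20.2%), the median overlap was 289 bp, and in 8377 pairs (93.9%) it covered at least 50% of both regions. The region over BDNF was longer in 42.2% of pairs and that over Naive in 36.9%. The median fold was 2.33 over BDNF and 2.34 over Naive, with 10th to 90th percentiles of 2.15 to 2.61 and 2.16 to 2.62. A fold of 3 or more was reached by 81 pairs over BDNF, by 92 over Naive and by 37 over both. These closely similar values come from 1 set of BDNF+Dox reads set against different backgrounds. At the edge of the rule, the 5 members with the shortest overlap shared 2 to 13 bp and lay in TTC27, DST, CNTN6 and DDX59 and outside genes, with folds of 2.13 to 2.31 over BDNF. The 5 regions that missed it most narrowly lay 4 to 97 bp from a region over Naive, in CNIH3, AUTS2 and OTUD7B, in the noncoding gene LOC105375138 and 2.44 kb from PGS1, with folds of 2.07 to 2.27. Their folds overlap, and few regions sat near the edge: 33 pairs shared under 50 bp, and 5 regions missed by 100 bp or less.

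More than 50% of the shared regions held no narrow peak at all. Narrow peaks of both comparisons lay in 2954 (33.1%), of the comparison with BDNF alone in 649 (7.27%), of the comparison with Naive alone in 559 (6.27%) and of neither in 4759 (53.3%). Over all 25226 broad regions 39% held a narrow peak over BDNF, 13.9% one over Naive and 11.7% both, and among shared regions the corresponding parts were 40.4%, 39.4% and 33.1%. All 7882 narrow peaks over Naive lay in broad regions over Naive, so their absence from the regions that are not shared is fixed by the rule. The share with a narrow peak over BDNF, 40.4% in shared regions and 38.2% in the others, is not fixed in that way, but was called on the same reads. Regions with narrow peaks of both comparisons were the narrowest, at a median of 204 bp, and those with neither were the widest, at 377 bp. Their median folds over BDNF were 2.43 and 2.30. In the other direction, 3610 of the 9850 narrow peaks over BDNF (36.6%) and 3522 of the 7882 over Naive (44.7%) lay in shared regions.

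**Figure D2:**
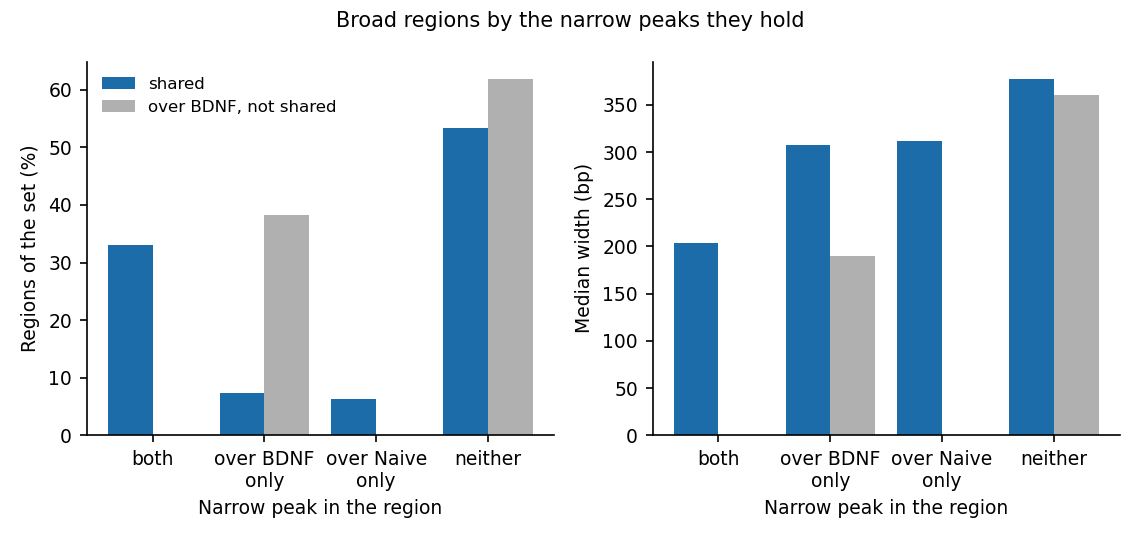
Broad regions by the pooled narrow peaks they hold (x axis): percentage of the set's regions (left, y axis) and their median width in bp (right, y axis), for shared regions (blue) and regions over BDNF that were not shared (grey, which have no region with a narrow peak over Naive). Among shared regions, those with neither narrow peak are the most numerous, 53.3%, and the widest, 377 bp.

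Single libraries seldom had a peak at these places. Of the 8921 shared regions, a peak lay in 540, 429 and 374 in the BDNF+Dox libraries (replicates 1, 2 and 3), in 2, 2 and 4 in the BDNF libraries and in 5, 5 and 5 in the Naive libraries. The BDNF+Dox values are all higher than those of the other libraries and do not overlap them, which the rule fixes, since it chose regions where the merged BDNF+Dox reads exceeded both others. As a percentage of regions, these were 5.02 ± 0.948% (SD, n = 3) for BDNF+Dox, 0.0299 ± 0.0129% for BDNF and 0.0560% in each Naive library. In the regions over BDNF that were not shared the corresponding means were 3.57 ± 0.859%, 0.0225 ± 0.00937% and 0.515 ± 0.239%. The rule asked for an excess over Naive in shared regions only, so it used the Naive values too.

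**Figure D3:**
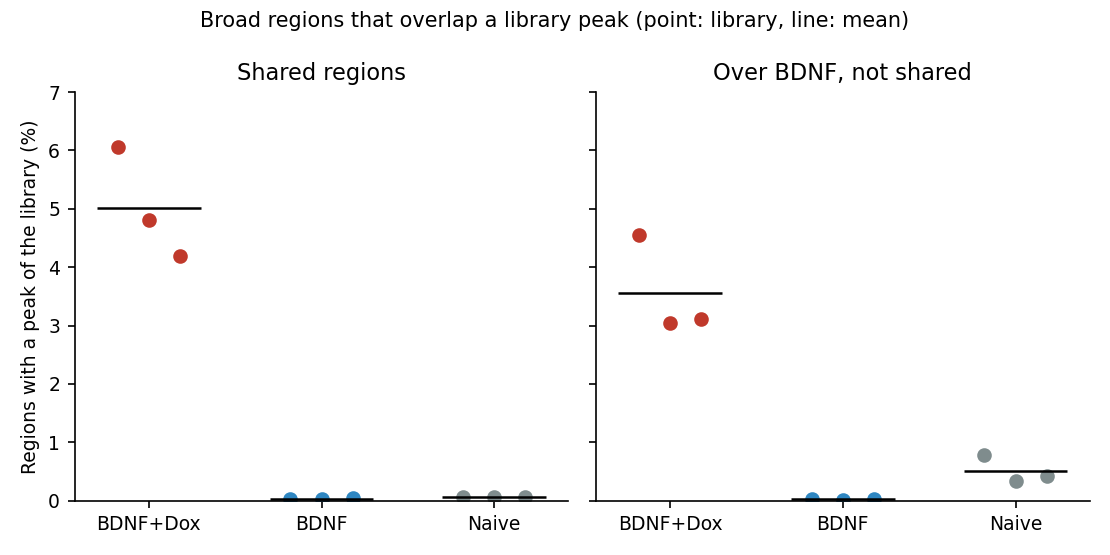
Percentage of broad regions that overlap a peak of a library (y axis), by group (x axis), in shared regions (left) and in regions over BDNF that were not shared (right). Each point is a library and the line is the mean of 3. The BDNF+Dox libraries lie between 4.19 and 6.05% in shared regions, and the BDNF and Naive libraries there at 0.0560% or less.

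Counting the libraries of a group together, 1287 shared regions (14.4%) held a BDNF+Dox peak from 1 or more libraries, 7 (0.0785%) a BDNF peak and 14 (0.157%) a Naive peak. Among all regions over BDNF the percentages were 11.8%, 0.0714% and 1.03%. The BDNF+Dox value was 8.84% without BDNF+Dox replicate 1, which had the most peaks of its group, the BDNF value 0.0336% without BDNF replicate 3, and the Naive value 0.101% without Naive replicate 1. Peaks were mostly of 1 library: 1233 regions had a peak in exactly 1 BDNF+Dox library, 52 in 2 and 2 in all 3, and 7634 (85.6%) in 0. The percentage with a narrow peak of either comparison was 42.8% in regions with no such library, 68.5% with 1 and 86.5% with 2. The pooled narrow peaks were called on the merged reads of these libraries, so the 2 are not independent.

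The 2 members with a peak in all BDNF+Dox libraries lay in NRCAM and near OR10D3. Neither had a peak in the BDNF or Naive libraries, but nor did 99.8% of all shared regions, which the rule chose for an excess over both groups. The NRCAM region (a neuronal adhesion gene of the L1 family) ran over chr7:108322126-108322514, inside the gene, with a fold of 2.75 and q = 0.26 over BDNF. Its partner over Naive began earlier, at 108321854, ended at 108322410, and had a fold of 2.52 and q = 0.576. NRCAM held 3 shared regions in or within 2 kb of the gene, of 5 over BDNF. The second member, chr11:124178712-124178931, lay 4.41 kb from the olfactory receptor gene OR10D3, with folds of 2.52 over BDNF and 2.15 over Naive. Neither reached q of 0.05.

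Together with these 2, 54 members (0.605%) had a peak in at least 2 BDNF+Dox libraries, where 0.392% of all regions over BDNF did. Of the 54, 53 (98.1%) had no peak in a BDNF or Naive library, against 99.8% of all shared regions. In protein-coding genes lay 21 of the 54 (38.9%), a smaller part than the 49.4% of all shared regions in or within 2 kb of such genes. These genes are named here after their values were seen. Genes of neurons and the synapse among them were CNTNAP2 (an axonal adhesion molecule), NRCAM, ADGRB3 (a synaptic adhesion receptor), DOCK3 (a guanine nucleotide exchange factor of neurons) and HECW1 (a ubiquitin ligase of neurons). Genes of basic cell functions were COPA (a coat protein of transport vesicles), SRP68 (signal recognition particle), CPSF3 (the nuclease that cleaves mRNA 3′ ends), DLD and OAT (mitochondrial enzymes), BLVRA (biliverdin reductase), CAST (the calpain inhibitor calpastatin) and NCOR1 (a corepressor of nuclear receptors). The rest were ROR1 (a Wnt5a receptor), LRP1B (a lipoprotein receptor family member), OTUD7A (a deubiquitinase), BBX, PAPLN, GPATCH2, MGAT4C and TTC27. The 54 members were 163 to 743 bp wide. Narrow peaks of both comparisons lay in 35 of the 54, a larger part than the 33.1% of all shared regions. Among the 52 with a peak in exactly 2 BDNF+Dox libraries the part was 63.5%. These narrow peaks were called on the merged reads of the same libraries. A peak in a BDNF or Naive library was seen in 21 members. The other 99.8% of shared regions had none, against 98.9% of all regions over BDNF, and the rule chose members for an excess over both groups. Of the 21, 15 had no peak in BDNF+Dox, where 85.6% of all shared regions had none. In protein-coding genes lay 12 of the 21, where 49.4% of all shared regions lay in or within 2 kb of one.

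The shared regions lay about as often in protein-coding genes as away from them. In or within 2 kb of such a gene were 4407 (49.4%), against 45.5% of the regions that were not shared. By class, 410 (4.60%, against 3.07%) lay within 2 kb of a gene's start or end, and 3997 (44.8%, against 42.4%) in a gene's interior. A further 1101 (12.3%, against 13.4%) lay in noncoding RNA genes only, 88 in pseudogenes or immune gene segments only, and 3325 (37.3%, against 40.2%) outside genes. Among members beyond 2 kb of a protein-coding gene the median distance to the nearest was 113 kb, against 148 kb, and 734 members (8.23%, against 10.9%) lay more than 500 kb away. Location was not used by the rule. Median width was 314 bp at gene ends and in gene interiors, 325 bp outside genes and 338 bp in the 88 at pseudogenes or segments.

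At the ends of genes, a strand was found in the promoter table for 347 of the 410 members. Starts and opposite ends held nearly equal numbers, 175 and 184, where 12 members touched both kinds. As a part of all shared regions, 1.96% (interval 1.68 to 2.27%) lay within 2 kb of a start, against 1.00% (0.853 to 1.16%) of the regions that were not shared. Opposite ends held 2.06% (1.78 to 2.38%) against 1.64% (1.45 to 1.84%). These intervals treat regions, not samples, as the unit, and 63 shared and 88 other gene-end regions had no side. The narrower promoter windows overlapped 0.202% of shared regions and 0.221% of the others, so the higher part of shared regions near starts was not seen in those windows.

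The 10 gene-end members with the smallest q had q between 0.422 and 0.816 over BDNF and so none was significant alone. All 10 held narrow peaks of both comparisons, against 33.1% of all shared regions. Those narrow peaks were called on the same merged reads that gave the q used to choose the 10, so they add no independent evidence. At starts were BLVRA (chr7:43759750-43759939, folds of 2.95 over BDNF and 3.02 over Naive), UPP1 (uridine phosphorylase), the histone H3.3 gene H3-3B and the syntrophin gene SNTG2. At the opposite end were SLC26A2 (a sulfate transporter), GAP43 (a growth cone protein), LRRN3 (a neuronal leucine-rich repeat protein whose gene lies inside IMMP2L), CFAP97D1 and ZNF66. The region 0.719 kb from NGFR, the p75 neurotrophin receptor gene, could not be given a side. Of the 10, those at BLVRA, UPP1, LRRN3, SNTG2 and ZNF66 held a peak from a single BDNF+Dox library and the other 5 from none. The GAP43 region, chr3:115719647-115719886, had the same bounds in both lists, and folds of 3.11 over BDNF and 3.11 over Naive.

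All 3 regions over BDNF at GAP43 were shared, and longer genes held more members. A shared region lay in or within 2 kb of 2872 of 19974 protein-coding genes (14.4%), and 2009 of these genes had exactly 1. The counts went with gene length: a member lay at 285 of 314 genes over 500 kb (90.8%) and at 100 of 5658 genes under 10 kb (1.77%). The median length was 123 kb with a member and 19.2 kb without. Per length, genes over 500 kb held 0.392 members per 100 kb of gene body, against 0.336 over all genes. Genes over 500 kb contained 11.5% of shared regions, against 11.3% of those not shared.

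CNTNAP2 held the most, 16 members of 53 regions over BDNF in its 2304 kb. PTPRD (a receptor phosphatase of synapse formation) held 15 of 36, AUTS2 (a neurodevelopmental gene) 12 of 30, NAALADL2 12 of 24, MAGI2 (a synaptic scaffold) 10 of 22 and EYS (a photoreceptor protein) 10 of 19 within the gene body. THSD7A (a thrombospondin-repeat membrane protein) and EXOC4 (an exocyst subunit) held 9 of 15 and 9 of 18, and MACROD2 (an ADP-ribose hydrolase) and GPC5 (a glypican) 9 of 22 and 9 of 24. All are long, from 462 kb in THSD7A to 2304 kb in CNTNAP2. CNTNAP2, AUTS2, MAGI2, THSD7A and EXOC4 lie on chromosome 7, which had 16.0 broad regions over BDNF per Mb, against 8.70 over all chromosomes. THSD7A was the densest of the 10, at 1.95 members per 100 kb. AUTS2 had 1.00 and CNTNAP2 0.694 per 100 kb. The smallest q of a member in these 10 genes was 0.833 over BDNF, in THSD7A. PRMT5 and L1CAM, which are short at 8.85 and 24.7 kb, held 0 shared and 0 other broad regions over BDNF. A member was rare at short genes, found at 1.77% of those under 10 kb and 14.4% of all protein-coding genes.

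Neuronal gene lists held many members, but the part of their regions that was shared was close to that in all genes. Of the broad regions over BDNF in or within 2 kb of protein-coding genes, 4407 of 11824 (37.3%) were shared, a measure that does not grow with gene length. The number of genes with a member does grow with it. Of all protein-coding genes, with a median length of 24.2 kb, 14.4% had a member. In the lists of this paragraph the median length ran from 360 kb (axon guidance) to 1205 kb (large fragile-site genes). Neuronal adhesion genes (median 545 kb) had a member in 23 of 29 genes, with 95 of 254 regions shared (37.4%, exact 95% interval 31.4 to 43.7%). CNTNAP2, SDK1 (8 members), NEGR1 (8) and CNTNAP5 (6), all cell adhesion molecules of neurons, led this list. Axon guidance genes had one in 16 of 26, with 60 of 153 regions shared (39.2%, 31.4 to 47.4%), led by the semaphorin coreceptor PLXNA4 (8), the SLIT receptor ROBO2 (7) and the semaphorins SEMA6D and SEMA3A (6 each). Synaptic organizer and release genes had one in 20 of 29, with 67 of 199 shared (33.7%, 27.1 to 40.7%), and included MAGI2, DLG2 (8) and the neurexin gene NRXN3 (6). Glutamate and GABA-A receptor genes had one in 14 of 27, with 37 of 113 shared (32.7%, 24.2 to 42.2%), and included the glutamate receptor genes GRIK2 (8), GRM8 (4) and GRM7 (3). Large fragile-site genes had one in 22 of 22, with 131 of 352 shared (37.2%, 32.2 to 42.5%), led by AUTS2, NAALADL2, EXOC4 and MACROD2. Every one of these intervals contains the 37.3% of all protein-coding genes.

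Lists with fewer regions spread more widely around that value. Axon and cytoskeleton genes had a member in 12 of 21 genes and 26 of 59 regions shared (44.1%, 31.2 to 57.6%), led by ANK3 (an ankyrin of the axon initial segment, 7), DST (a cytoskeletal linker, 4), GAP43 (3) and DCLK1 (a microtubule-binding kinase, 2). Neuroblastoma regulators had one in 4 of 25 and 13 of 28 shared (46.4%, 27.5 to 66.1%). Of these members, 9 lay in or within 2 kb of the receptor kinase gene ALK (7 in its body), 2 in YAP1 and 1 each at NGFR and ATRX. Retinoic acid and BDNF response genes had one in 7 of 27 and 22 of 50 shared (44.0%, 30.0 to 58.7%), with 7 in PRKCE and 6 in PRKCA, which are protein kinase C genes, and 2 each in RARB (a retinoic acid receptor) and SORCS3 (a sortilin family receptor). PRMT and BAF complex genes had one in 10 of 33 and 14 of 28 shared (50.0%, 30.6 to 69.4%), with 4 in ARID1B, 2 in PBRM1 and 1 each in SMARCA2 and ARID2, all BAF subunits. Synuclein and Parkinson disease genes had one in 6 of 20 and 9 of 31 shared (29.0%, 14.2 to 48.0%), among them 2 each in DNAJC6 (auxilin) and LRRK2. Cell cycle and housekeeping genes, which are short (median 12.0 kb), had a member in 1 of 26 (CDC25A, a cell cycle phosphatase), with 1 of 3 regions shared. Markers of other cell types (median 17.4 kb) had one in 1 of 24 (COL3A1, a fibroblast collagen), with 1 of 8 regions shared. The intervals of these lists, too, contain 37.3%.

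**Figure D4:**
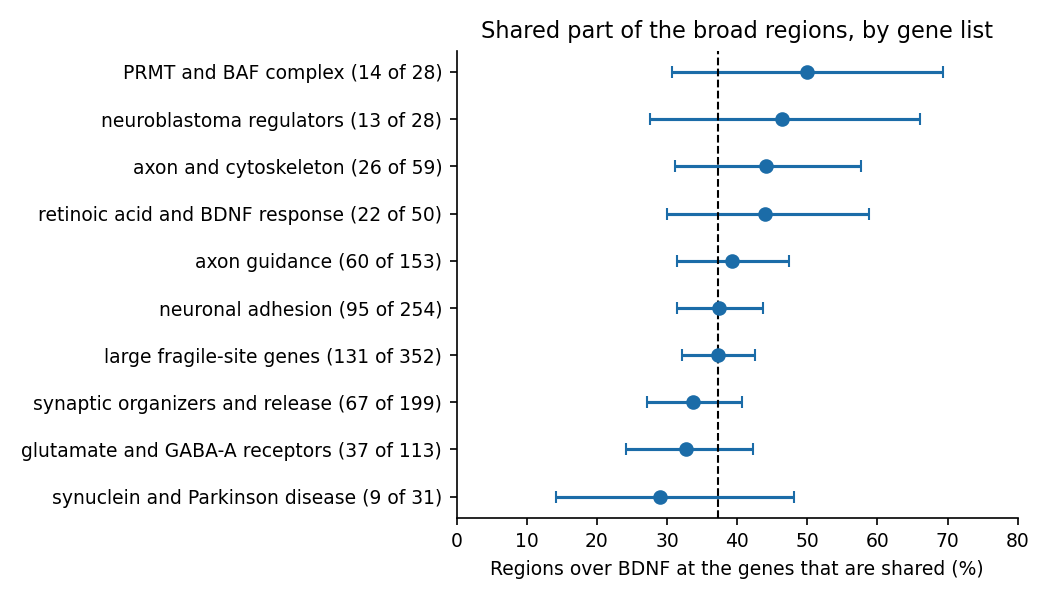
Percentage of the broad regions over BDNF in or within 2 kb of a list's genes that were shared (x axis), for the 10 gene lists with 20 or more such regions (y axis, with shared and total regions in brackets). Points are percentages, bars exact 95% binomial intervals and the dashed line the 37.3% of all protein-coding genes, which lies inside every bar.

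Along the genome the members averaged 3.08 per Mb, over the 2900 bins of 1 Mb that contain an annotated gene or a region. Chromosome 7 had the highest density, 4.81 per Mb (751 members), followed by chromosome 1 with 4.36 (999) and chromosome 2 with 3.81 (923). Chromosomes 19 and 22 had the lowest, 0.789 per Mb (45 members) and 1.075 per Mb (43). The part of regions over BDNF that was shared was lowest on chromosome 7, at 30.1% of 2495 regions, and highest on chromosomes 20 and 22, at 43.6% of 321 and 43.4% of 99, while on chromosome 19 it was 36.0% of 125. All broad regions over BDNF numbered 16.0 per Mb on chromosome 7 and 2.19 per Mb on chromosome 19. Gene density ran from 25.5 protein-coding genes per Mb on chromosome 19 to 3.45 on chromosome 13. Copy number of the line was not tested here.

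**Figure D5:**
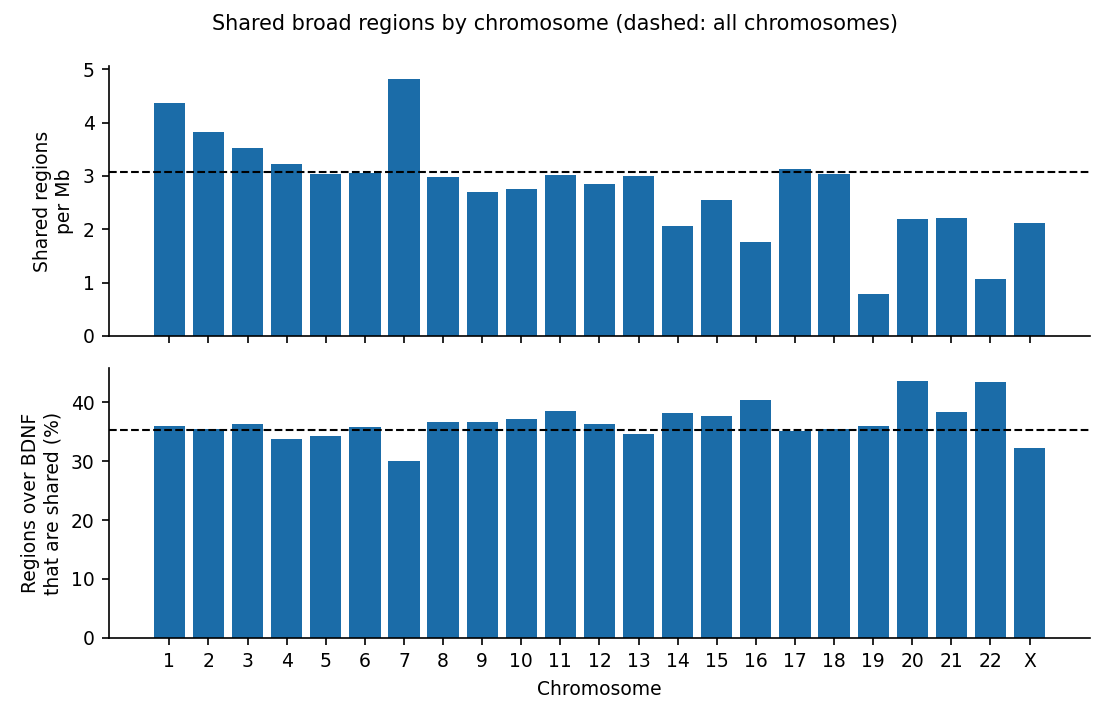
Shared regions per Mb (top, y axis) and percentage of the regions over BDNF that were shared (bottom, y axis) on each chromosome (x axis). Dashed lines mark all chromosomes together, 3.08 per Mb and 35.4%, and chromosome 7 is highest in the top panel and lowest in the bottom panel.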

How the data were processed

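ChIP-seq of H4R3me2s in 9 libraries, 3 per group, and 1 Input library was analysed from peak lists. The submitters' processing notes name cutadapt 1.1, Trimmomatic 0.32, Bowtie (no version) and the build GRCh38, and per the file headers peaks were called with MACS2 2.2.7.1 at p 0.01, pooled lists from 1 merged file per group, with 1 read kept per position. The deposited columns are the length in bp, pileup (signal), −log10 p-value, −log10 q-value (values are present although the headers state that q would not be calculated) and fold enrichment, a ratio over local background. In broad lists MACS2 writes these as means over the region.

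Overlaps were computed with Python 3.11.15 and pandas 2.3.3 (minimum 1 bp) and were checked on regions with planted overlaps. Genes and promoters were those of RefSeq GRCh38.p14. Promoter windows with the same bounds and strand were counted once, and the promoter table gave a strand for 79.2% of protein-coding genes. Intervals are exact binomial at 95%.

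Groups came from the labels. The members and the 12 gene lists were chosen with earlier results of these data known. Regions were named by rule: the 10 with the smallest q, the 10 widest, those with a peak in all BDNF+Dox libraries and those at the edge of the rule. Genes named were the 10 with most members, the 10 gene-end members with the smallest q and up to 4 per list, with NRCAM and AUTS2. PRMT5, L1CAM, the promoter genes and the genes of members with 2 library peaks were added after their values were seen. Some genes that the rule names are not reported here. Alternatives were the overlap rule, peak thresholds, gene windows, left-out libraries and other sequences.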

Additional observations from a re-analysis of the deposited data

Results flagged for a closer look

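Outside chromosomes 1 to 22 and X, which the comparisons above do not use, 15 broad regions over BDNF overlapped a broad region over Naive. In these data left aside, 32 regions over BDNF and 54 over Naive lay on unplaced contigs and mitochondrial DNA. Of the 32, 46.9% were shared, against 35.4% on chromosomes 1 to 22 and X, but 32 regions are few and the difference was not tested. All 5 mitochondrial regions over BDNF were among the 15. The source of these regions was not tested.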

How the results depend on the processing

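Results kept within 1.5 times (counts) or within their spread (values) in 26 of 49 alternatives. With 50% reciprocal overlap 33.2% of regions were shared. With both lists first cut to −log10 p of 5 or more, 5 regions were shared (21.7%, median width 207 bp). With both cut to q of 0.05 or less, 2 were (40.0%, 378.5 bp). These cuts also remove partners over Naive, unlike the 56.5% given above for a −log10 p of 5 or more over BDNF alone. Narrow peaks at −log10 p of 5 or more lay in 5.96% (over BDNF), 5.40% (over Naive) and 3.08% (both) of shared regions. Library peaks at that threshold lay in 2.21% (BDNF+Dox), 0.0224% (BDNF) and 0.0112% (Naive). With 4505 peaks per library these became 9.72% for BDNF+Dox and 0.0785% for Naive. Leaving out 1 replicate gave 8.84 to 10.5% for BDNF+Dox, 0.0336 to 0.0673% for BDNF and 0.101 to 0.112% for Naive. A 5 kb window put 51.3% at protein-coding genes and 9.51% at gene ends, a 1 kb window 2.10% and region midpoints 4.15% at gene ends. Stricter thresholds and fewer libraries leave fewer peaks by construction, and other causes were not tested. No paired analysis was possible because the regions were chosen on the merged reads of these libraries, which leaves no test between groups to pair. The depth behind a single region is unknown.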

Other observations

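The 10 widest members ran from 1074 to 1511 bp. Of these 10, 8 had q = 1 over BDNF, where 80.7% of all shared regions did. No narrow peak of either comparison lay in 6 of the 10, as in 53.3% of all shared regions. The widest, chr1:163251640-163253150, lay in RGS5, a regulator of G-protein signalling, and its partner over Naive was 186 bp long. The others inside genes lay in AGPS (a peroxisomal enzyme of ether lipid synthesis), SLC25A24 (a mitochondrial carrier), CNTN6 (a neuronal contactin), ZBTB40 and THSD7A. The 4 outside genes were 514 kb from IRX1, 905 kb from IFTAP, 764 kb from TMEFF2 and 598 kb from CCER1. All 10 had 0 peaks in each of the 9 libraries, as did 85.4% of all shared regions.

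Members were spread thinly: the median gap between neighbours was 182 kb, 373 of 8898 neighbouring pairs (4.19%) lay within 10 kb, and 357 of 2900 bins of 1 Mb (12.3%) held none. The fullest bin, 225000001 to 226000000 of chromosome 1, held 16 members of 27 regions over BDNF and includes DNAH14 (a dynein heavy chain), ENAH (an actin regulator of axon growth) and LBR (the lamin B receptor). Bins with 13 members lay on chromosome 7 around AUTS2 (70000001 to 71000000) and on chromosome 1 around SYT14 (209000001 to 210000000) and NMNAT2 (183000001 to 184000000).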
